A study of Mus musculus with 6 samples.

Results

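The 10 mouse genes described here serve innate recognition: 9 genes for C-type lectin receptors of myeloid cells (Clec4a1, Clec4a2, Clec4a3, Clec4d, Clec4e, Clec4n, Clec5a, Clec7a and Clec12a) and Card9, the adaptor through which several of them signal. They were taken by symbol, and all 10 were among the 19386 genes that the authors' deposited table lists. The samples were bone marrow-derived macrophages of wild-type C57BL/6 mice, with 3 libraries from smoke-exposed animals (cigarette smoke) and 3 from animals held in room air. In both groups the marrow cells were depleted of erythrocytes, grown in medium with L929 cell supernatant and harvested on day 11, so the measured cells had matured in culture after they left the animal. The dose and length of the exposure and the age of the mice are not given in the sources used here. The labels speak of cells from each mouse but do not say outright that each library is another animal, so p-values of the splicing tests measure only the spread between these 6 libraries, while those of expression come from a fit over 24 libraries.

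C-type lectin receptors bind sugars and lipids of fungi, mycobacteria and damaged cells. The activating receptors carry or borrow a tyrosine motif: Clec7a (Dectin-1) has one in its own tail, Clec4n (Dectin-2), Clec4d (MCL) and Clec4e (Mincle) use the Fc receptor gamma chain Fcer1g, and Clec5a (MDL-1) uses the adaptor Tyrobp. The motif recruits the kinase Syk, and Card9 then joins Bcl10 and Malt1 to switch on NF-kB and inflammatory genes. Clec12a (MICL) and Clec4a2 (DCIR) carry inhibitory motifs that recruit phosphatases such as Ptpn6. In macrophages Clec7a is known as the receptor for fungal beta-glucan and Clec4e as a receptor whose gene is induced strongly by inflammatory stimuli.

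Promoter sequence is shown for 3 members on which the expression values below turn: Clec7a, with a higher mean after smoke, Clec12a, with a lower one, and Clec4e, whose mean over 24 libraries far exceeded both group means. The windows run from 250 bases before to 50 bases after a start site in RefSeq on GRCm38.p6. They lie on chromosome 6 at chr6:129472730-129473029 (minus strand), chr6:129349994-129350293 (plus strand, at a start inside the gene) and chr6:123289822-123290121 (minus strand). Capitals mark matches on either strand to GAGGAA, the core of the box bound by the myeloid factor PU.1, to TTNNGNAA, a C/EBP motif, and to TGANTCA, an AP-1 motif.
Clec7a promoter: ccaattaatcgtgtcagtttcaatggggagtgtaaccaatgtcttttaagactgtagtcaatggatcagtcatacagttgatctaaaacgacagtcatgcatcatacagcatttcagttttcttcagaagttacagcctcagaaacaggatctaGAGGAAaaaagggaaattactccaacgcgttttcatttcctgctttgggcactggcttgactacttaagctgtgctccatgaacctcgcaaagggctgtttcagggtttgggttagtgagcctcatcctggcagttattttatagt
Clec12a promoter: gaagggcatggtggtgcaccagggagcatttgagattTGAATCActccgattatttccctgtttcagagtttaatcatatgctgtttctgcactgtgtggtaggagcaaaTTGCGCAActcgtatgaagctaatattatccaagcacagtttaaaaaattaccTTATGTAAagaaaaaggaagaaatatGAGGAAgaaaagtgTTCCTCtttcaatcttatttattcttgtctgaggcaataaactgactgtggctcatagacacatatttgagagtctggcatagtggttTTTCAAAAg
Clec4e promoter: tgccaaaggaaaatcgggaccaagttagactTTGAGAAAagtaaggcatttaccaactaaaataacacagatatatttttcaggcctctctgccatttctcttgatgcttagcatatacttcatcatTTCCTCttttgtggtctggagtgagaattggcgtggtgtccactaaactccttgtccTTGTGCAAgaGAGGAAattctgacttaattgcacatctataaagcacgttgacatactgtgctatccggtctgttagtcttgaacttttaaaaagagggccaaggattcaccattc
The Clec7a window held 1 match, a PU.1 box 96 bases before the start site. The Clec12a window held 6 matches, among them PU.1 boxes on opposite strands at 61 and 47 bases before the start. The Clec4e window held 4 matches, with a PU.1 box 56 and a C/EBP motif 66 bases before the start. Of the 9 members with a promoter in the table, 7 held a PU.1 box, 6 a C/EBP motif and 2 (Clec12a and Clec4a2) an AP-1 motif. Counted by promoter, as some genes have several, 8, 6 and 2 of their 11 promoters held these motifs, beside 28.3%, 40.7% and 7.81% of all 32851 promoters of this length. Clec4n was not matched. Such a match describes the letters only, and binding was not measured.

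Defining macrophage genes were abundant: all 10 on the list were found, their summed means were 57168.7 normalized counts in room air and 57734.9 after smoke, and the highest was Lyz2. Markers of other cells that bear these receptors were at or near 0, with 4 of 10 neutrophil genes listed at summed means of 0.322 and 0.508 and 5 of 8 dendritic genes at 2.26 and 1.11. S100a8 and Cxcr2 were among the markers listed at 0 in at least 1 group. The 4 B cell genes listed summed to 145.6 and 122.6, nearly all of it Ighm, the 2 T and NK cell genes to 32 and 24.5, mostly Cd4, and Kit, the single mast cell gene, had means of 54.5 and 47.9. Klf1, the single erythroid gene, was listed at 0 and 0.508. The 6 stromal genes summed to 45.6 in room air and 10.6 after smoke, and their part in the results was not tested. An adjusted p was given for all 10 macrophage and all 6 stromal genes and for 1 gene each of the B cell, T and NK cell and mast cell lists, and none of these was under 0.05. No neutrophil, dendritic or erythroid marker had one. Expression was available as group means only, so neither the spread between libraries nor their depth can be shown, and in bulk RNA fewer cells of a type and less RNA per cell cannot be told apart.

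At an adjusted p of 0.05 none of the 10 genes was called in the authors' deposited table, where 929 of 12082 genes were (7.69%), 502 of them higher after smoke (4.15%) and 427 lower (3.53%). Taking out the dependence of fold changes on GC content and transcript length left 153 calls over all genes, 100 higher and 53 lower, and again none among the 10. At an unadjusted p under 0.05, the authors' deposited table held 3 of the 10, Clec4n, Clec12a and Clec7a, beside 2755 of all genes (22.8%). Log2 fold changes of smoke over air in the authors' deposited table were positive for 5 members and negative for 5, with a median of 0.00. Their median size of 0.24 lay beside 0.23 over all genes tested, while their median standard error of 0.32 was above the 0.21 of all genes.

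Among the activating receptors, Clec7a and Clec4n had the widest gaps between the group means. For Clec7a, the beta-glucan receptor (ENSMUSG00000079293.11, chr6:129461591-129472779, minus strand), the authors' deposited table gives a mean of 249.7 normalized counts in room air and 823.4 after smoke. The ratio in the authors' deposited table is 3.3-fold (log2 1.72, SE 0.78, 95% interval 0.19 to 3.26), with p = 0.028 and an adjusted p of 0.158 from DESeq2. The ratio would have had to reach 4.81-fold at this standard error to equal the smallest score of a called gene. Clec4n, the alpha-mannan receptor (ENSMUSG00000023349.14, chr6:123229843-123247021, plus strand), had means of 56.9 in room air and 248.0 after smoke in the authors' deposited table. On the log2 scale the authors' deposited table puts this at 2.13 (SE 0.85, 95% interval 0.47 to 3.79), a 4.38-fold ratio with an adjusted DESeq2 p of 0.0965, and a 5.47-fold ratio would have been needed. Both intervals leave out 0, but neither gene passed after adjustment over all genes.

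The standard errors of these receptors were unusually large for their level. Among 3180 genes of the authors' deposited table with a mean like that of Clec7a, the median standard error was 0.15, and 0.503% had one as large as its 0.78. For Clec4n 1.52% of 4005 genes of like mean had a standard error as large, beside a median of 0.18. Card9 stood at the other end, with 80.7% of 3900 such genes having a standard error at least as large as its 0.15. Which libraries carry the spread in Clec7a and Clec4n cannot be read from group means.

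**Figure D1:**
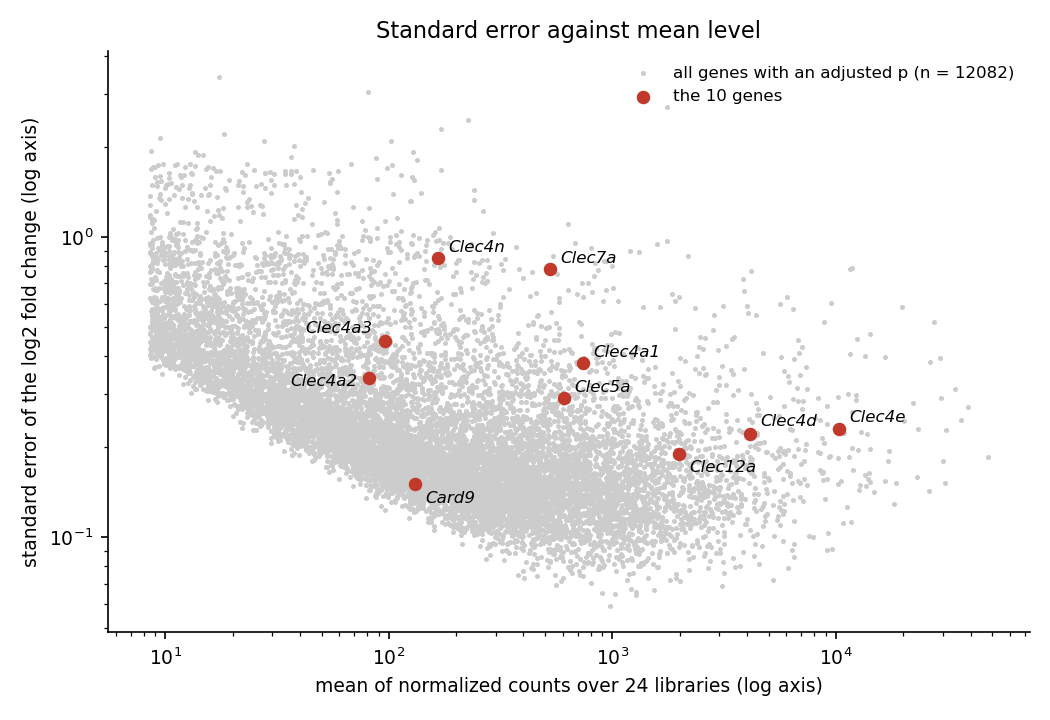
Standard error of the log2 fold change (vertical, log axis) against the mean of normalized counts over 24 libraries (horizontal, log axis) in the authors' deposited table; grey points are the 12082 genes with an adjusted p and red points the 10 genes. Clec7a (0.78) and Clec4n (0.85) sit at the upper edge of the cloud at their level, Card9 (0.15) within its dense lower part.

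The 3 other activating receptors had group means closer to each other. Clec4e, the Mincle receptor for mycobacterial cord factor (ENSMUSG00000030142.10, chr6:123281789-123289870, minus strand), had means of 871.2 in room air and 1023.9 after smoke in the authors' deposited table. This is a log2 fold change of 0.23 (SE 0.23, 95% interval -0.22 to 0.69) with an adjusted DESeq2 p of 0.605 in the authors' deposited table. Clec4d, its partner receptor (ENSMUSG00000030144.4, chr6:123262111-123275265, plus strand), had means of 1626.8 and 1489.6 and a log2 fold change of -0.13 (SE 0.22, 95% interval -0.55 to 0.30) in the authors' deposited table. Clec5a (ENSMUSG00000029915.14, chr6:40574894-40585821, minus strand) had means of 596.1 and 602.9 and a log2 fold change of 0.02 (SE 0.29, 95% interval -0.55 to 0.58) in the authors' deposited table. The adjusted DESeq2 p-values of Clec4d and Clec5a in the authors' deposited table were 0.796 and 0.982. With the GC content and length trend taken out, the log2 values of Clec4e and Clec5a were 0.47 and 0.25 (adjusted p = 0.414 and 0.854).

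The inhibitory receptor Clec12a had the highest mean count of the set in both groups, with no scaling for length. It was the single member with a lower mean after smoke at an unadjusted DESeq2 p under 0.05. Its means in the authors' deposited table were 2502.1 in room air and 1801.0 after smoke (ENSMUSG00000053063.11, chr6:129342691-129365303, plus strand). On the log2 scale the authors' deposited table gives -0.48 (SE 0.19, 95% interval -0.85 to -0.11; p = 0.0117, adjusted p = 0.095 from DESeq2), which is 1.39-fold higher in room air, where 1.46-fold would have been needed for a call. Clec4a2, the inhibitory DCIR receptor (ENSMUSG00000030148.15, chr6:123106428-123143999, plus strand), had means of 56.8 and 65.8 and a log2 fold change of 0.25 (SE 0.34, 95% interval -0.42 to 0.92; adjusted DESeq2 p = 0.732) in the authors' deposited table. The trend taken out, the log2 values of Clec12a and Clec4a2 were -0.32 and 0.43 (adjusted p = 0.553 and 0.731). Of its 50-base stretches, 8.19% also occur in other genes, among them Clec4a4 and Clec4b1, and it overlaps the pseudogene Gm44132 on the same strand, so its counts are uncertain. No such sharing was found for 7 members, and for Clec12a and Clec4n it was 0.691% and 0.812%.

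Clec4a1 and Clec4a3 belong to the same subfamily as Clec4a2. Clec4a1 (ENSMUSG00000049037.8, chr6:122921848-122934619, plus strand) had means of 323.9 and 259.5 in the authors' deposited table and a log2 fold change of -0.31 (SE 0.38, 95% interval -1.06 to 0.43). Clec4a3 (ENSMUSG00000043832.13, chr6:122952515-122969875, plus strand) had means of 132.2 and 120.3 in the authors' deposited table and a log2 fold change of -0.11 (SE 0.45), a ratio with a 95% interval of 0.499 to 1.72. The adjusted DESeq2 p-values were 0.686 and 0.925 in the authors' deposited table. For Card9, the adaptor (ENSMUSG00000026928.14, chr2:26352176-26360918, minus strand), the means were 261.6 and 259.2 in the authors' deposited table. Its log2 fold change of -0.02 in the authors' deposited table (SE 0.15, adjusted DESeq2 p = 0.97) had the narrowest interval of the 10, from -0.31 to 0.28, or a ratio between 0.806 and 1.21. With the GC content and length trend taken out its log2 value was -0.30 (adjusted p = 0.44), near the lower end of that interval. Card9 overlaps the gene Gm13562 on the opposite strand, and whether counting used the strand is not given in the sources used here.

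**Figure D2:**
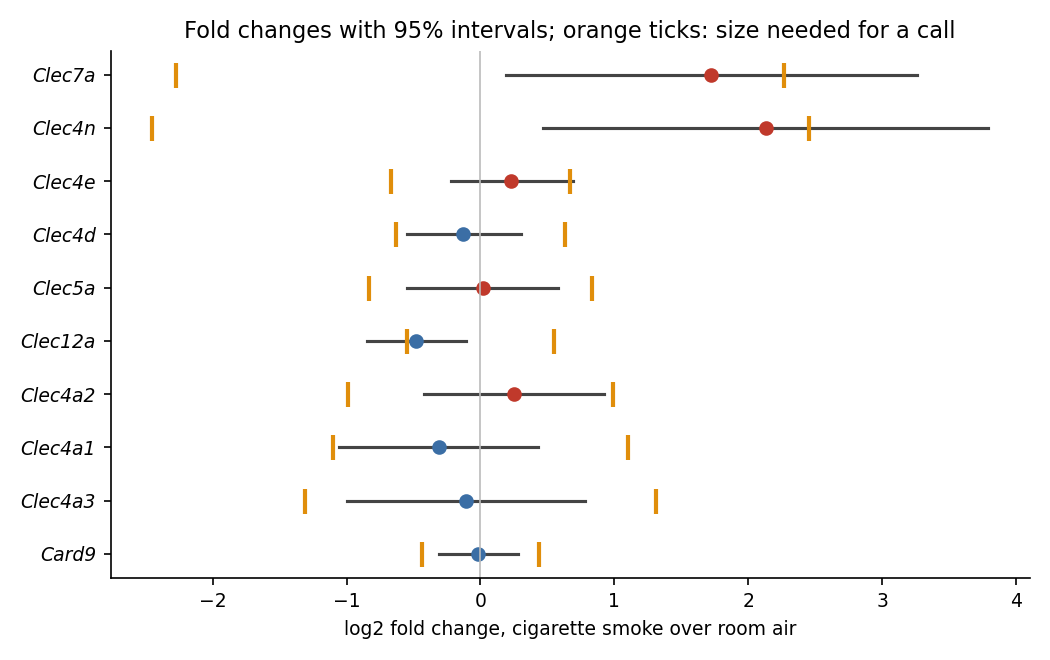
Log2 fold change of cigarette smoke over room air in the authors' deposited table (points; red above 0, blue below) with 95% intervals (lines) for the 10 genes; orange ticks mark the size each gene would have needed to match the smallest score among called genes. No point reaches its tick, and Clec12a (-0.48), Clec4n (2.13) and Clec7a (1.72) reach the greatest share of the size they needed (0.55, 2.45 and 2.27).

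Levels of different genes were compared as room air means per kilobase of the longest transcript, on the normalized count scale of the authors' deposited table. Clec4d came first at 1229.7 per kilobase and Clec12a second at 773.9, followed by Clec4a1 (207.9), Clec4e (181.3), Clec5a (159.1), Card9 (134.3), Clec7a (109.7), Clec4a3 (101.7), Clec4n (40.5) and Clec4a2 (22.9). After smoke the level of Clec7a was 361.6 per kilobase and that of Clec4n 176.7. With only group means, the spread needed to separate neighbours in this order cannot be had, and parts of the order depend on the length used. For Clec4e the longest transcript, Clec4e-205, retains an intron, and its level per kilobase of the longest coding transcript was 346.0. With that length Clec4e ranked 3 and Clec4a1 ranked 4. Per kilobase of all exons joined, Clec12a was at 452.6, and Clec4a3 (99.6) came before Clec7a (94.7).

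Of the 10 genes, 6 lie in a single stretch of chromosome 6 from Clec4a1 to Clec4e, which spans 368.0 kb and holds 9 protein-coding genes, 3 of them not members (Clec4a4, Clec4b1 and Clec4b2), on GRCm38 (GENCODE M21). Levels within this stretch ranged widely: in the authors' deposited table the room air mean was 1626.8 for Clec4d, while Clec4a4 and Clec4b1, neighbours of Clec4a2, had means of 0.451 and 1.59. Directions of the group means were mixed as well, though neither gene named here was called. After smoke and in room air, Clec4n was at 248.0 against 56.9 and its direct neighbour Clec4d at 1489.6 against 1626.8 in the authors' deposited table. Clec7a and Clec12a lie further along the same chromosome in another lectin gene cluster. GENCODE M21 gives Clec7a the type polymorphic pseudogene and the other 9 genes the type protein coding.

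**Figure D3:**
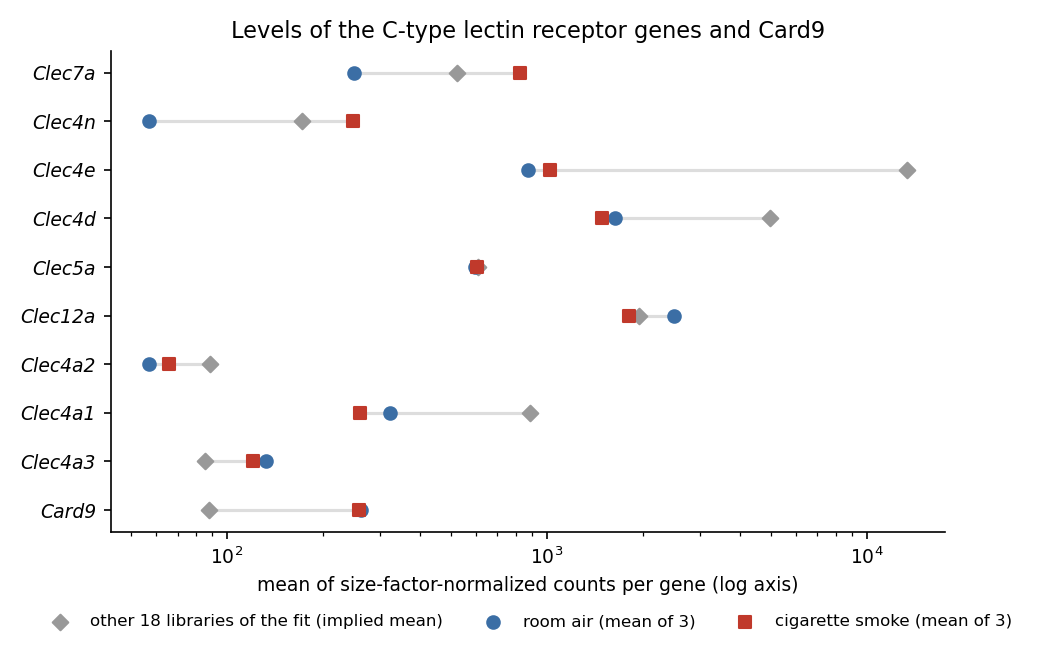
Means of size-factor-normalized counts (horizontal, log axis) for the 10 genes in the authors' deposited table: room air (blue circles), cigarette smoke (red squares) and the mean that the 24-library mean implies for the 18 libraries that are not samples here (grey diamonds). For Clec4e the diamond lies at 13357.7, far above both groups, and for Card9 at 87.6, below both.

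The fit behind the authors' deposited table also held 18 libraries that are not samples here and whose conditions are not given in the sources used here. From the 24-library mean and both group means their mean follows for each gene. For Clec4e the mean over 24 libraries in the authors' deposited table was 10255.1, which implies 13357.7 in the other 18 libraries, 14.1 times the mean of the 6. Over all 12082 genes the median of this ratio was 1.09, and 3.79% reached 10. Clec4d and Clec4a1 had ratios of 3.2 and 3.04, with implied means of 4988.7 and 886.2, where 19% of all genes reached 2. Card9 had the lowest ratio of the 10, 0.337, with an implied mean of 87.6, and 13% of all genes had a ratio below 0.5. Clec7a (0.974), Clec5a (1.02) and Clec12a (0.901) had nearly the same mean in the 6 libraries as in the other 18. The levels of Clec4e and Clec4d in both groups were far below the average of the 24 libraries, and the other libraries also entered the standard errors.

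The proteins that carry the signal were then read from a list of 31 partners, of which 30 were listed and tested. That list was also chosen with earlier results of these data known. In the authors' deposited table, 4 partners passed an adjusted DESeq2 p of 0.05 (13.3%, beside 7.69% of all genes), and the median log2 fold change of the list was -0.02. Those higher after smoke were the Src-family kinase Fgr, with means of 26.4 and 55.4 and a log2 fold change of 1.09 (SE 0.32, adjusted p = 0.0172), and Rac2, a small GTPase of the phagocyte oxidase, with means of 1609.5 and 2076.0 in the authors' deposited table (0.36, SE 0.12, adjusted p = 0.0439). Those lower were the kinase Map3k7 (TAK1), with means of 497.7 and 404.6 (-0.31, SE 0.10, adjusted p = 0.0369), and the exchange factor Vav3, with means of 516.4 and 384.6 in the authors' deposited table (-0.43, SE 0.15, adjusted p = 0.0467). Once the GC content and length trend was taken out, none of these 4 kept its call. The log2 value of Fgr was then 1.01 (adjusted p = 0.0826), close to the 1.09 before, while those of Rac2, Map3k7 and Vav3 were 0.26, -0.10 and -0.27 (adjusted p = 0.394, 0.811 and 0.502). Malt1 was called in that setting, at 0.79 (adjusted p = 0.0478). When p-values were adjusted over every gene with a p-value, Fgr alone of the 4 remained. Map3k7 overlaps the pseudogene Gm11926 and the snRNA gene Gm26254 on the opposite strand.

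The adaptors and kinase that bind the receptors directly did not pass. Fcer1g, the chain used by Clec4n, Clec4d and Clec4e, had means of 2248.6 and 2628.4 in the authors' deposited table and a log2 fold change of 0.22 (SE 0.13, adjusted DESeq2 p = 0.284). Tyrobp, the partner of Clec5a, had means of 1305.3 and 1562.9 in the authors' deposited table (0.26, SE 0.19, adjusted DESeq2 p = 0.437), and Hcst, its companion adaptor DAP10, means of 9.79 and 12.8 (0.35, SE 0.41, adjusted DESeq2 p = 0.669). Syk had means of 1904.6 and 1908.1 in the authors' deposited table, with a 95% interval of -0.38 to 0.39 around a log2 fold change of 0.01. With the trend removed the log2 values of Fcer1g (-0.06), Tyrobp (-0.10), Hcst (-0.06), Syk (-0.00) and Ptpn6 (-0.08) changed sign, and none was called. Downstream, Bcl10 had means of 278.7 and 271.0 and Malt1 of 301.5 and 387.3 in the authors' deposited table, with adjusted DESeq2 p-values of 0.935 and 0.338. Ptpn6, the phosphatase recruited by inhibitory receptors, had means of 1575.2 and 1728.0 in the authors' deposited table (0.13, SE 0.14, adjusted DESeq2 p = 0.647), and it overlaps an antisense gene.

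Genes known to be induced through these receptors included 5 that passed the threshold, all higher after smoke. The list was chosen with earlier results of these data known, so its share of calls is a description only. Whether the receptors acted on these genes here was not tested. Of 20 such genes 17 were tested, 5 were called in the authors' deposited table (29.4%, beside 7.69% of all genes), and the median log2 fold change was 1.53. They were the prostaglandin synthase Ptgs2 (2.83, SE 0.60, adjusted p = 0.0005), the nitric oxide synthase Nos2 (2.78, SE 0.73, adjusted p = 0.00603), the cytokine Il1b (1.99, SE 0.58, adjusted p = 0.0148), its antagonist Il1rn (1.19, SE 0.40, adjusted p = 0.0416) and the growth factor Csf2 (6.01, SE 2.00, adjusted p = 0.0404), as log2 fold changes with DESeq2 p-values in the authors' deposited table. Csf2 was barely detected in room air, with means of 0.129 and 9.85 in the authors' deposited table, and its fold depends on how such a level is treated: with a pseudocount of 1 added to both means it was 3.26 on the log2 scale. Ptgs2 had means of 42.5 and 300.8 and Il1b of 17.5 and 69.3 in the authors' deposited table. Their implied means in the other 18 libraries were 12653.8 and 8579.4. Without that trend the calls of Ptgs2 and Nos2 stayed and those of Il1b, Il1rn and Csf2 did not (adjusted p = 0.0672, 0.0719 and 0.119). Their log2 values without the trend were 1.88, 1.28 and 5.89. Il1b and Csf2 overlap antisense genes.

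Other C-type lectin genes gave 1 call among 17 tested (5.88%, 24 of 40 listed), with a median log2 fold change of 0.01. Clec10a, a galactose-binding receptor of macrophages, rose from 206.3 to 505.4 in the authors' deposited table (log2 fold change 1.30, SE 0.42, adjusted DESeq2 p = 0.0343), and its call was lost with the trend removed, at a log2 value of 1.20 (adjusted p = 0.141). Of the 3 others with the highest 24-library means, Cd69 had means of 22.9 and 63.2, Cd72 of 2476.0 and 2214.3 and the mannose receptor Mrc1 of 3601.2 and 2196.5 in the authors' deposited table. Their adjusted DESeq2 p-values in the authors' deposited table were 0.139, 0.719 and 0.0836. Cd72 overlaps the gene Tesk1 on the opposite strand, and Mrc1 overlaps the microRNA gene Mir511 on the same strand.

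Splicing was the measure with values for single libraries. The JuncBASE table held 26 events inside 4 of the genes, 16 in Card9, 4 in Clec5a, 3 in Clec4d and 3 in Clec4e, and none inside the other 6. Levels are percent inclusion, the share of reads that support the longer form, and read counts behind them are unknown. Of the 26 events 15 had a level in all 6 libraries, 11 had none in smoke replicate 1 and 1 of these had none in room air replicate 1 either. Over the whole output 4169 of 10376 events (40.2%) lacked a level in smoke replicate 1. No member event passed an adjusted p of 0.05 by limma, and 0% of all 10376 events did. At an unadjusted limma p under 0.05 there were 2 of 26, both in Card9, beside 10.8% of all events. The groups did not overlap in 8 of 26, beside 22.8% of all events. The lowest corrected p of a member event in the authors' deposited JuncBASE table was 0.499.

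Exon sequence is shown for 3 exons whose choice was measured, from GENCODE M21 transcripts on GRCm38, with the exon or exon part in capitals and the 20 transcript bases on each side in lower case. These belong to the neighbouring exons, except that the bases after the Clec4d piece are the rest of its own exon. The Clec5a exon (chr6:40584356-40584430, minus strand) has 75 bases, the length of 25 codons. The Clec4e exon (chr6:123286432-123286518, minus strand) has 87 bases, the length of 29 codons, and it is skipped in Clec4e-207. Where codons begin in these exons was not examined. The Clec4d piece (chr6:123267992-123268068, plus strand) is the 77-base start of an exon of the coding transcript Clec4d-201 and lies inside an intron of Clec4d-203, a transcript annotated for nonsense-mediated decay.
Clec5a cassette exon: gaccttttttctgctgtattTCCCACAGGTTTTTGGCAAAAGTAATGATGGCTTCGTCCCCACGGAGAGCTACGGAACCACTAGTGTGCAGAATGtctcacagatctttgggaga
Clec4e cassette exon: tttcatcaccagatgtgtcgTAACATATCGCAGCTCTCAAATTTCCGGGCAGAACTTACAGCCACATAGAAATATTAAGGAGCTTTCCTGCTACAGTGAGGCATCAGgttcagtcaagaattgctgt
Clec4d exon start: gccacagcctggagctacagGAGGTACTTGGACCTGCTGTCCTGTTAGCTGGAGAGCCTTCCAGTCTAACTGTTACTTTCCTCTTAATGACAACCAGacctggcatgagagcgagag
The Clec5a exon was included at 47.37%, 28.57% and 35.14% in the room air libraries and at 41.67% and 35.9% in smoke replicates 2 and 3. The smoke values lay within the range of room air. Room air averaged 37 ± 9.54% (SD, n = 3) and smoke 38.8 ± 4.08% (SD, n = 2), which differ by 1.76 percentage points (limma adjusted p = 0.935). The joint skipping of the next exons of Clec5a overlapped between groups as well, with inclusion of a cassette of 2 exons at 81.5 ± 4.62% (SD, n = 3) and 81.6 ± 7.12% (SD, n = 2). Transcripts of Clec5a with and without the exon existed side by side in both groups. A 4-base donor choice in Clec5a was at 96.9 ± 5.42% and 98.5 ± 2.63% (SD, n = 3 each).

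The Clec4e exon was nearly always included, at 94.87%, 100% and 93.81% in room air and 95%, 97.22% and 96.88% after smoke. The groups overlapped, with means of 96.2 ± 3.31% and 96.4 ± 1.2% (SD, n = 3 each; limma adjusted p = 0.857). In Clec4d a stretch made of the 77-base piece and the intron before it was scored as a retained intron. Its level was 70.75%, 75.25% and 69.23% in room air and 69.39%, 64.86% and 74.12% after smoke. These libraries overlapped, with means of 71.7 ± 3.13% and 69.5 ± 4.63% (SD, n = 3 each; limma adjusted p = 0.891). That stretch holds exon bases of Clec4d-201 beside intron bases, so its level is not the share of transcripts that keep the intron. A splice site inside that exon that is not annotated defined a shorter retained stretch of 832 bases in Clec4d, with 18.92%, 25.4% and 16.07% in room air and 0%, 7.69% and 14.67% after smoke. There every smoke library lay below every room air library, 20.1 ± 4.78% against 7.45 ± 7.34% (SD, n = 3 each), but the limma adjusted p was 0.491.

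**Figure D4:**
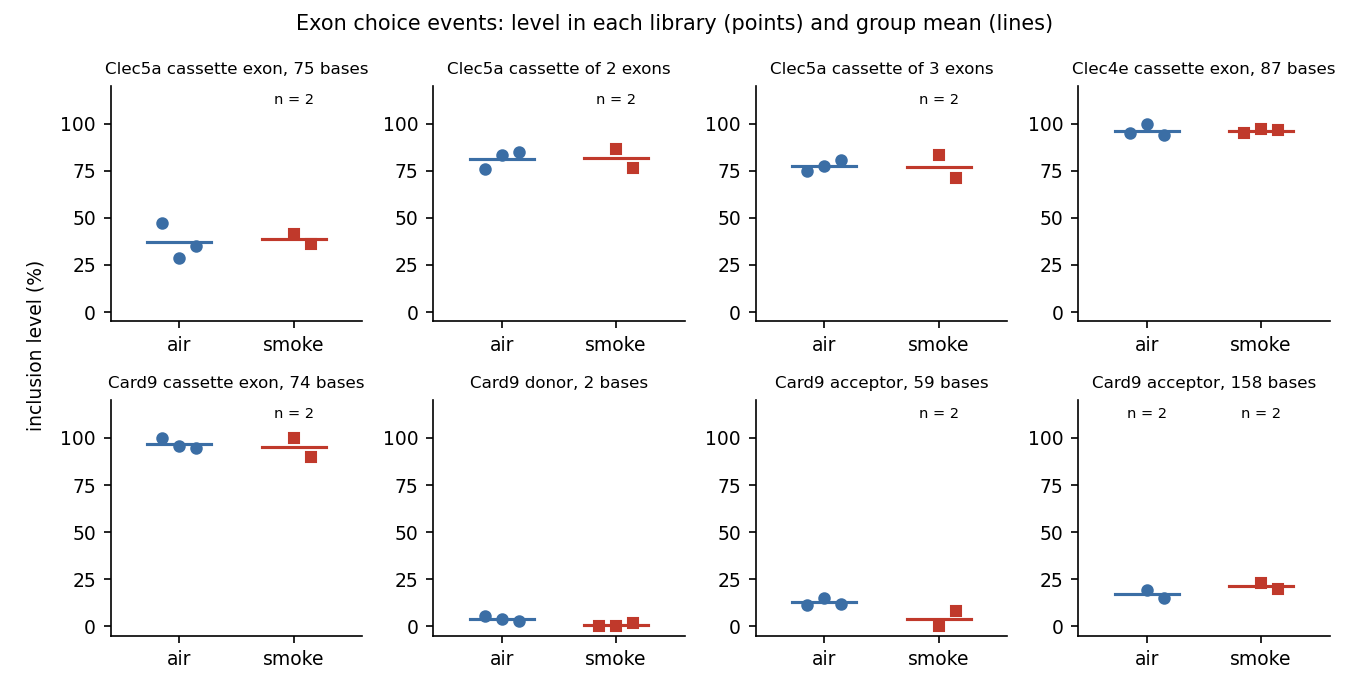
Inclusion level in percent (vertical) of 8 exon choice events in Clec5a, Clec4e and Card9 by library (points; blue circles room air, red squares cigarette smoke) with group means (lines); n is given where a group has fewer than 3 levels. The Clec5a exon lies between 28.57% and 47.37% in room air with both smoke libraries inside that range, and the Clec4e exon lies at 93.81% or more in all 6 libraries.

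Card9 held the 2 events with the lowest limma p-values. The intron at chr2:26354406-26354829 (424 bases, annotated in Card9-202 and a further transcript) was retained at 9.09%, 5.88% and 3.23% in room air and at 0% in each of the 3 smoke libraries. Room air libraries all lay above smoke libraries, with means of 6.07 ± 2.93% and 0 ± 0% (SD, n = 3 each), a log2 odds difference of -2.82 (SE 0.52; limma adjusted p = 0.155). In the authors' deposited JuncBASE table the same event had an unadjusted p of 0.469 and a corrected p of 1. A donor choice of 2 bases at chr2:26352483-26352484 was at 5.26%, 4.08% and 2.86% in room air and 0%, 0% and 1.61% after smoke. Its log2 odds difference was -1.90 (SE 0.58; limma adjusted p = 0.315), and the same choice counted from junction reads alone overlapped between groups (adjusted p = 0.542). An acceptor 59 bases inside the intron at chr2:26359560-26360786 was used at 11.11%, 15.22% and 11.9% in room air and at 0% and 8.16% in smoke replicates 2 and 3, which lay below all room air libraries (limma adjusted p = 0.478). Without smoke replicate 3 all 3 of these events passed by limma, with adjusted p-values of 0.0412, 0.0293 and 0.0301 in the order given, the last of them with 1 smoke library that was assumed to vary like the others, and so did 1064 of 10243 events of the whole table (10.4%). With any other library left out none passed. The levels in Card9 are low, and with unknown read counts a level of 0% may rest on few reads.

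The remaining Card9 exon choices overlapped between groups or rested on few libraries. A 74-base cassette exon of Card9 was included at 96.9 ± 2.78% (SD, n = 3) in room air and 95 ± 7.07% (SD, n = 2) after smoke. The acceptor choice of 158 bases was measured in 2 libraries of each group, at 19.23% and 15% in room air and 23.08% and 20% after smoke, with every smoke value above both room air values (limma adjusted p = 0.778). A 176-base donor choice of Card9 was at 4.76%, 5.88% and 0% in room air and 0% in every smoke library (limma adjusted p = 0.476). The other Card9 choices had limma adjusted p-values between 0.541 and 0.945.

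Retained introns made up 10 of the 26 events: 5 in Card9, 3 in Clec4d and 2 in Clec4e. The mean level was lower after smoke in 9 and higher in 1, and the groups did not overlap in 5. Over all 3305 retained introns that JuncBASE listed, 89.9% had a lower mean after smoke and in 35.2% the groups did not overlap. The direction in the members was that of most introns in the data. The median difference was -5.13 percentage points in the members and -3.79 over all retained introns. Of the 16 member events of other types 11 had a lower and 5 a higher mean, beside 55.1% lower and 44.8% higher over all other events. For the 7 member introns with a level in every library, the mean retention was 17.2%, 17.9% and 15.5% in room air and 11.1%, 11.3% and 15.5% after smoke. Smoke replicate 3 matched the lowest room air library, and the other 2 smoke libraries lay below all of room air. The group means were 16.9 ± 1.22% and 12.7 ± 2.5% (SD, n = 3 each), a difference of -4.24 points, which ranged from -5.68 to -3.47 with 1 library left out. The Clec4d intron that holds exon bases shares its start with the 832-base Clec4d stretch, so the 7 are not all separate. That intron with exon bases carries much of this level. Over the other 6 introns, a choice made after seeing the data, retention was 8.29%, 8.37% and 6.6% in room air and 1.39%, 2.4% and 5.78% after smoke, so that every smoke library lay below room air. The means were then 7.75 ± 0.997% and 3.19 ± 2.3% (SD, n = 3 each), -4.57 points apart.

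Among single introns, that of 1227 bases at chr2:26359560-26360786 in Card9, annotated in a single transcript, was retained at 17.24%, 25% and 21.28% in room air and 7.69% and 15.09% in smoke replicates 2 and 3. Both smoke values lay below all of room air (21.2 ± 3.88%, SD, n = 3, against 11.4 ± 5.23%, SD, n = 2; limma adjusted p = 0.526). The first exon of Card9-202 reaches into this intron. In Clec4d an intron of 4263 bases, whose end differs from the annotated one, was at 23.53%, 31.11% and 23.91% in room air and 8.33% and 22.03% in smoke replicates 2 and 3, again with no overlap (limma adjusted p = 0.541). Apart from the 424-base intron described above, the other Card9 introns overlapped between groups. Among them was the 379-base intron, at 30.2 ± 5.75% (SD, n = 3) and 25 ± 11.8% (SD, n = 2). The shortest, of 66 bases, was the single one with a higher mean after smoke (1.08 ± 1.86% and 2.02 ± 3.5%, SD, n = 3 each).

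**Figure D5:**
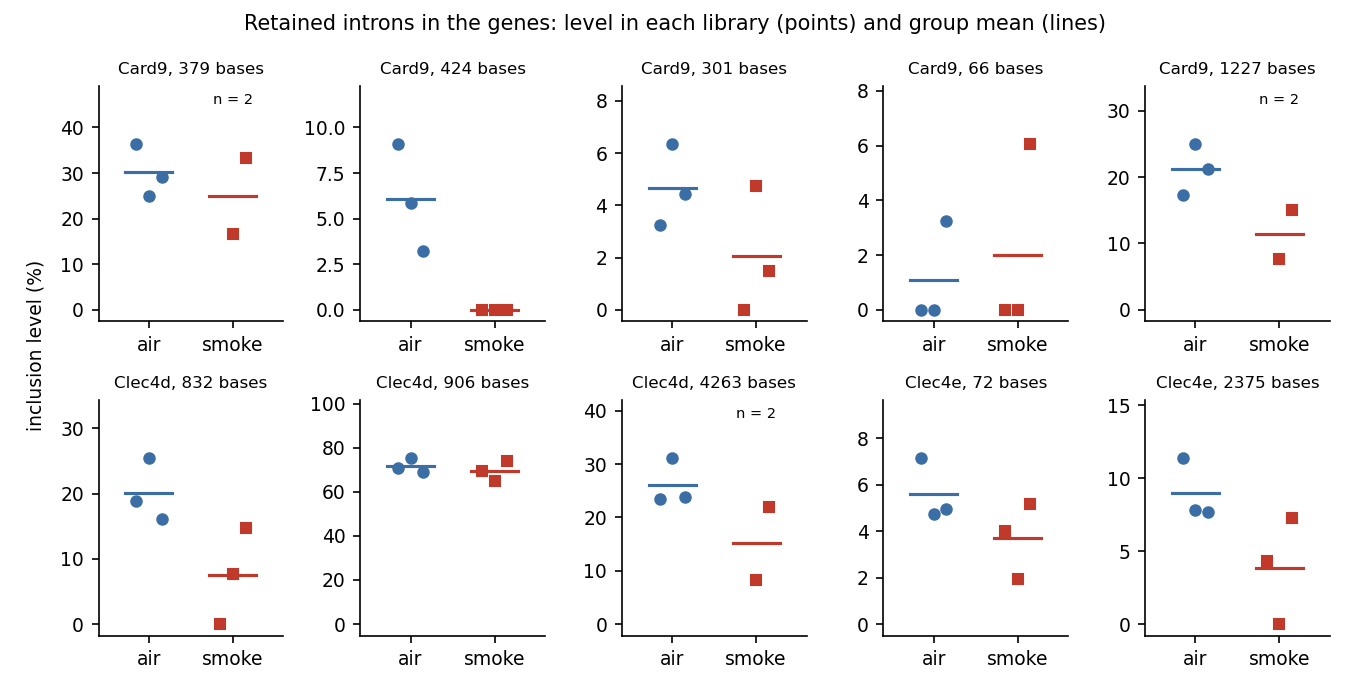
Retention level in percent (vertical, scale differs between panels) of the 10 retained introns of Card9, Clec4d and Clec4e by library (points; blue circles room air, red squares cigarette smoke) with group means (lines); each panel gives the intron's length, and n = 2 marks groups without smoke replicate 1. The smoke mean lies below the room air mean in 9 panels, and the groups do not overlap in 5.

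A single intron of Clec4e was measured by both splicing programs. It spans chr6:123286519-123288893 (2375 bases, minus strand) next to the 87-base cassette exon. JuncBASE gave 11.36%, 7.81% and 7.69% in room air and 4.35%, 0% and 7.27% after smoke. All smoke libraries lay below room air, by a narrow margin for smoke replicate 3, with means of 8.95 ± 2.09% and 3.87 ± 3.66% (SD, n = 3 each; limma adjusted p = 0.524). The authors' deposited rMATS table gave the same intron p = 0.000586 and a false discovery rate of 0.00814, and it was the single rMATS intron in any of the 10 genes, where 565 of 3887 introns (14.5%) passed a false discovery rate of 0.05. Its difference in the authors' deposited rMATS table was 2.8 percentage points, sample set 1 minus set 2, and which set holds the smoke libraries is not stated. The second Clec4e intron, of 72 bases, was at 7.14%, 4.76% and 4.96% in room air and 4%, 1.92% and 5.19% after smoke, and these groups overlapped (limma adjusted p = 0.623).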

How the data were processed

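RNA was measured in 6 libraries of bone marrow-derived macrophages, made with a directional kit from total RNA, per the labels' protocols. The submitters' processing notes name STAR, DESeq2, SAMtools 1.9, bedtools 2.27.1 and the build mm10; other settings are not given in the sources used here. The authors deposited a gene table with signal columns, the means of counts divided by size factors per group and over 24 libraries, per the file headers. The log2 fold changes, their standard errors, the Wald score and the p-values of that table are the authors' own, per the file headers, and no expression value per library was used, so the planned count test could not be run. Percent inclusion per library was deposited by the authors from JuncBASE. The authors' rMATS table gives p-values and false discovery rates; its 6 columns of per-sample values were not used.

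Intervals are the log2 fold change plus and minus the normal 95% quantile times its standard error. The size needed for a call is the smallest absolute score of a called gene, 2.89, times the standard error. The mean of the other 18 libraries was derived from the 3 deposited means. Inclusion p was turned into log2((p + 1)/(100 - p + 1)) and a linear model with group as its term was fitted to all 10376 events (limma 3.58.1, R 4.3.3; Benjamini-Hochberg adjustment). Both scripts that compute statistics across genes or events were tested on simulated data. Transcripts, lengths and GC content came from GENCODE M21. The dependence of fold changes on GC content and log2 of length was fitted by splines of 4 degrees of freedom (statsmodels 0.14.6) over 12071 genes. All 10 members, every event inside them, called list genes, 7 fixed adaptors and the 3 most abundant other lectins were named. Members and lists were chosen with earlier results of these data known. Replicate numbers were not used to pair the libraries, except as a block in an alternative fit. With 3 libraries per group, correlations of same-numbered libraries cannot settle whether they were paired.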

Additional observations from a re-analysis of the deposited data

How the results depend on the processing

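Direction and side of the threshold were kept by 98 of 118 gene values and 221 of 249 event values recomputed with a p, and direction by all 30 gene values recomputed from group means, where Csf2 went from 6.01 to 3.26. The count of members called stayed at 0 under all 4 alternatives for expression. With the GC and length trend removed, calls went from 4 to 1 among signalling partners, from 1 to 0 among other lectins, from 5 to 2 among induced genes and from 929 to 153 over all genes. With adjustment over every gene with a p-value they were 1, 0, 3 and 688. With the trend removed the log2 fold changes of Fcer1g, Tyrobp, Hcst, Syk and Ptpn6 were -0.06, -0.10, -0.06, -0.00 and -0.08. Member JuncBASE events called ranged from 0 to 3 with 1 library left out, and were 0 with the replicate block, where same-numbered libraries correlated at 0.0177, -0.0404 and -0.0888. Over all events the calls were 23 of 5933 with complete levels and 5 of 10376 without transformation, none in the members. The rMATS count went from 1 to 0 at a minimum difference of 10 points. Uncalled events crossed 0 with 1 library left out, as log2 odds differences: in Card9 -0.92 to 0.75 for the 52-base acceptor, -2.47 to 0.66 for the 60-base donor, -1.89 to 1.72 for the cassette exon, -1.06 to 0.22 for the 379-base intron, -0.71 to 0.97 for the 66-base intron and -0.98 to 0.71 for the 52-base acceptor from junction reads; -0.89 to 0.58 for the Clec4e exon; and in Clec5a -0.85 to 1.17 for the 4-base donor, -0.43 to 0.51 for the cassette of 2 exons, -0.49 to 0.49 for the cassette of 3 exons and -0.14 to 0.43 for the 75-base exon. With the replicate block the Card9 cassette exon was at 0.77 and the Clec5a cassette of 2 exons at -0.19, and the untransformed difference of the Clec4e exon was 0.14. Why these values moved was not tested. Events lacking a library (11) could not be refitted on complete levels, the length of the longest coding transcript was added after the data had been seen, and the merged annotation was not used for lengths because it names no genes. Depth may limit levels near 0% or 100%, and the read counts behind them are unknown.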
